A study of Homo sapiens with 12 samples.

Results

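The 50 genes described here are interferon-stimulated genes whose products carry out or regulate the antiviral state of a cell. They were taken from a list of names and not by a threshold on any measured value, and they were followed through HCT116, a cell line established from a human colon carcinoma, with and without doxorubicin. Of the 50 genes, 43 have a row in the table used here, which lists 16676 genes, and 40 passed the filter for testing, a level of at least 1 TPM in at least 2 libraries, which 15256 genes passed. TPM is a read count divided by gene length and scaled to a fixed total per library. SAMD9L, IFI16, GBP1, XAF1, MX2, IFI44L and RTP4 have no row in that table. OAS2, MX1 and GBP3 have a row and were under the filter, at 0.0194 to 0.377 TPM, 0.128 to 0.71 TPM and 0.382 to 1.21 TPM across the libraries.

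Interferons are secreted proteins that a cell releases when it senses foreign or misplaced nucleic acid. Type I interferon binds the receptor IFNAR1/IFNAR2 and activates the kinases JAK1 and TYK2, which phosphorylate STAT transcription factors. The complex ISGF3, which holds STAT2 and IRF9, then binds interferon-stimulated response elements in the promoters of many genes. The products of those genes bind viral RNA, block its translation, tag proteins with the ubiquitin-like ISG15, or trap virus particles at membranes. Interferon gamma acts at a different element, the gamma-activated site. In cultured tumour cells many of these genes have a basal level that can change without added virus.

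The genotype of the HCT116 cells took 3 forms. WT cells were unmodified, KO cells had the long non-coding RNA SPARCLE knocked out, and OE cells over-expressed it. Doxorubicin, a DNA-damaging chemotherapy drug, was given at 1 µM during the last 48 h before RNA extraction, and control cells received plain medium. That makes 6 groups, each with biological replicates a and b. The labels give no clone names, so whether KO or OE cells rest on 1 clone each is not known and the p-values measure only the spread between these replicates. The labels name no added interferon in any group, and no agent other than doxorubicin. SPARCLE itself, matched through its RefSeq gene number (symbol MIR34BHG), had 384 and 622 reads in the OE control libraries and 430 and 487 reads with doxorubicin. The WT and KO libraries held 0 to 4 reads each, so the loss of SPARCLE in the KO cells was not detectable at this depth.

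Promoter sequence is shown first, because the interferon-stimulated response element is what genes of this kind are known to share, while the list was made from names. The windows are those of RefSeq on GRCh38.p14, from 250 bases before to 50 bases after each annotated start, and 41 of the 50 members had at least 1. The core of the element was searched on both strands as GAAA, any 2 bases and GAAA again, which reads TTTC, any 2 bases and TTTC on the other strand. It was found in 33 of 58 member windows (56.9%), against 3.57% of 35116 windows of all genes, and in 28 of 41 members (68.3%) against 4.38% of 27305 genes. The gamma-activated site, searched as TTCNNNGAA, was in 14 of 58 member windows (24.1%) against 7.66% of all windows, and some of its matches overlap a response element core. The sequences below run 5′ to 3′ on the gene's strand, are stretches of those windows upstream of the annotated start, and have the matched letters of the response element core in capitals.
IFI27, chr14:94110616-94110662 (plus strand): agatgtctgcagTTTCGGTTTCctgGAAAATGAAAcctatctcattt
IFI44, chr1:78649759-78649788 (plus strand): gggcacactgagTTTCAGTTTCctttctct
IFI6, chr1:27672264-27672360 (minus strand): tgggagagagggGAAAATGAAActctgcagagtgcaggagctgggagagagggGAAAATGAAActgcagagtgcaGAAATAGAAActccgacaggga
ISG15, chr1:1013372-1013411 (plus strand): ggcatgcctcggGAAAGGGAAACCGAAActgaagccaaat
BST2, chr19:17405733-17405772 (minus strand): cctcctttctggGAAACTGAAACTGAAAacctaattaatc
IFIT1, chr10:89392495-89392541 (plus strand): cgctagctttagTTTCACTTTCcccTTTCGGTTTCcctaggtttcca
IFIT3, chr10:89327829-89327896 (plus strand): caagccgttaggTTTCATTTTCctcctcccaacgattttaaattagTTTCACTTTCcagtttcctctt
IFIT5, chr10:89414511-89414567 (plus strand): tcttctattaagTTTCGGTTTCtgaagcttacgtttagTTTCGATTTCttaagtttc
OAS3, chr12:112938319-112938352 (plus strand): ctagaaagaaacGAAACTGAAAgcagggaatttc
SAMD9, chr7:93118094-93118127 (minus strand): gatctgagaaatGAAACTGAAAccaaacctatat
DDX60, chr4:168318784-168318852 (minus strand): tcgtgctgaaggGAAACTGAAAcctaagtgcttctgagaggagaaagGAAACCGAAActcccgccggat
LGALS3BP, chr17:78979960-78979993 (minus strand): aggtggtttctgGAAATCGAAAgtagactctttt

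These 12 hold the core upstream of the start, and their genes were called with doxorubicin in at least 2 kinds of cell. They were picked as examples with those calls known, and PLSCR1, NMI and EPSTI1, which also meet both conditions, are not shown. IFI6 holds 3 copies of the core in the stretch shown. In ISG15 and BST2 a pair of cores overlaps, so that 3 GAAA blocks follow each other. In IFIT1, IFIT3 and IFIT5 each core shown lies on the strand opposite to the gene. OAS1, which rose in every kind of cell, has no core in its window, and no match says only that these letters are not in this window. Of the members that rose with doxorubicin in all 3 kinds of cell, 13 of 19 with a window (68.4%) hold the core, and of those called in none, 6 of 7 do (85.7%). A match is a description of the letters and not a tested binding site.

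**Figure D1:**
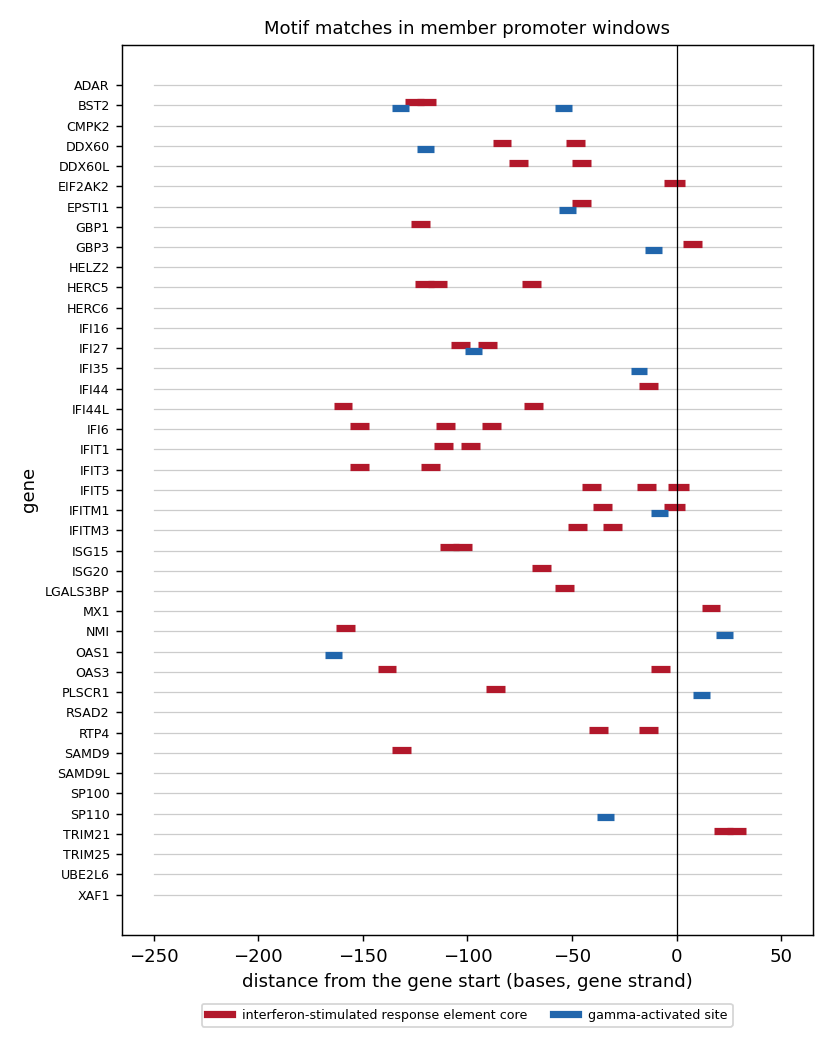
Matches to the response element core (red) and the gamma-activated site (blue) in the promoter windows of 41 members, by distance from the annotated start in bases on the gene's strand; a gene with several windows is drawn with 1 of them. Most core matches lie upstream of the start, and those drawn for TRIM21, GBP3 and MX1 lie downstream of it.

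The reads on listed genes, recovered from the TPM steps, numbered 12599392 to 30690664 per library. Small RNA genes, 321 in number, held 64.5 to 75.3% of the summed TPM, and the shift of the median gene per library ran from -0.32 to 0.29 log2 units. WT control replicate a was the lowest library for these genes, with a median member 1.62 log2 units under its mean over all libraries (0.89 under in replicate b) and a summed member level of 539 TPM (905 TPM in replicate b). All 8 epithelial markers of the fixed list had a row (EPCAM, 90.2 to 163 TPM), although VIL1 stayed at or under 0.987 TPM. Of the leukocyte markers 3 of 8 had a row, and those without a row included PTPRC, CD3E, CD14 and TYROBP. The summed level of the 3 listed (CD68, ITGAM and CD74) was 13.4 to 44.8 TPM over the control libraries and 4.46 to 10.3 TPM with doxorubicin. Most of that sum was CD68, at 3.83 to 43.9 TPM, while ITGAM and CD74 reached at most 1 and 0.943 TPM. Of the mesenchymal markers 3 of 6 had a row, summing to 4.78 to 8.93 TPM over the controls and 9.05 to 21.6 TPM with doxorubicin. The epithelial markers summed to 929 to 2040 TPM over the controls and 2590 to 3250 TPM with doxorubicin, with KRT19 alone at 421 to 1850 TPM across the libraries. All 3 sums moved with the drug, and their part in the results was not tested. All libraries are of the HCT116 line, so these sums are no count of leukocytes or mesenchymal cells. In bulk samples the share of cells that express a marker and its RNA per cell cannot be told apart.

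The first question was what doxorubicin did to these genes in each kind of cell. Most of the tested members rose in each kind of cell, with IFIT, OAS and ISG15-system genes and the RNA sensor kinase PKR (EIF2AK2) among those that rose in all 3. In WT cells 23 of the 40 tested members were called higher and 1 lower, where 19.6% of all genes tested were called higher and 12.6% lower. A gene is called here at a Benjamini-Hochberg adjusted p under 0.05 over all 15256 genes in limma, on the scale log2(TPM + 1), with all 6 groups in a single model. In KO cells 28 members were called higher and 1 lower (9.9% and 14.3% of all genes). In OE cells the counts were 29 and 1 (12.4% and 10.6% of all genes). The median difference of the members was 1.01, 1.32 and 1.29 log2 units in WT, KO and OE cells, where that of all genes was 0.17, -0.01 and 0.11.

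The same 22 members were called higher in all 3 kinds of cell, and GBP2 was called lower in all 3. A further 6 were called higher in 2 kinds (ADAR, CMPK2, EPSTI1, IFI27, IFI44 and USP18) and 2 in 1 kind (TRIM25 in WT, RSAD2 in OE). The 9 members called in none were DDX60L, HELZ2, HERC5, IFITM1, IFITM2, IFITM3, ISG20, PML and TRIM21. These lists depended on the scaling. With TPM rescaled without small RNA, ADAR, CMPK2, TRIM21 and USP18 were also called higher in WT cells (limma adjusted p = 0.0129 to 0.0351). HERC5 and DDX60L were then called in OE cells (0.0224 and 0.0451). RSAD2 and TRIM25 were called in KO cells with that rescaling, scaling by the median gene or voom on recovered reads (0.00952 to 0.0383). TPM without small RNA called 27.7%, 20.3% and 23.4% of all genes higher in WT, KO and OE cells. Of the 40 members, 8 passed the filter only through the doxorubicin libraries (CMPK2, EPSTI1, IFIT2, IFIT3, NMI, OAS1, RSAD2 and TRIM22), so the counts describe the list and are no test of it. Libraries with doxorubicin lay above those without, with no overlap, for 33 members in WT, 33 in KO and 35 in OE cells, as for 44%, 28.3% and 34.2% of all genes. Leaving out some libraries lowered the count, in fits that hold 1 library in a group. The counts over all genes in those fits are not given here, so the drop is not shown to be particular to these members. In WT cells the calls numbered 11 without WT control replicate a, and as many when WT doxorubicin replicate b was left out. In KO cells 19 were called without KO control replicate b or KO doxorubicin replicate a, and in OE cells 18 without OE control replicate b and 19 without OE doxorubicin replicate a. When libraries were scaled by the median gene, 22.6% of all genes were called higher and 23.2% lower in WT cells, 18.8% each way in KO cells, and 19.6% and 19.7% in OE cells, while the members stood at 21 and 3, 30 and 2, and 29 and 2. That scaling moved the median of all genes in WT cells from 0.17 to -0.01 and that of the members to 0.83.

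**Figure D2:**
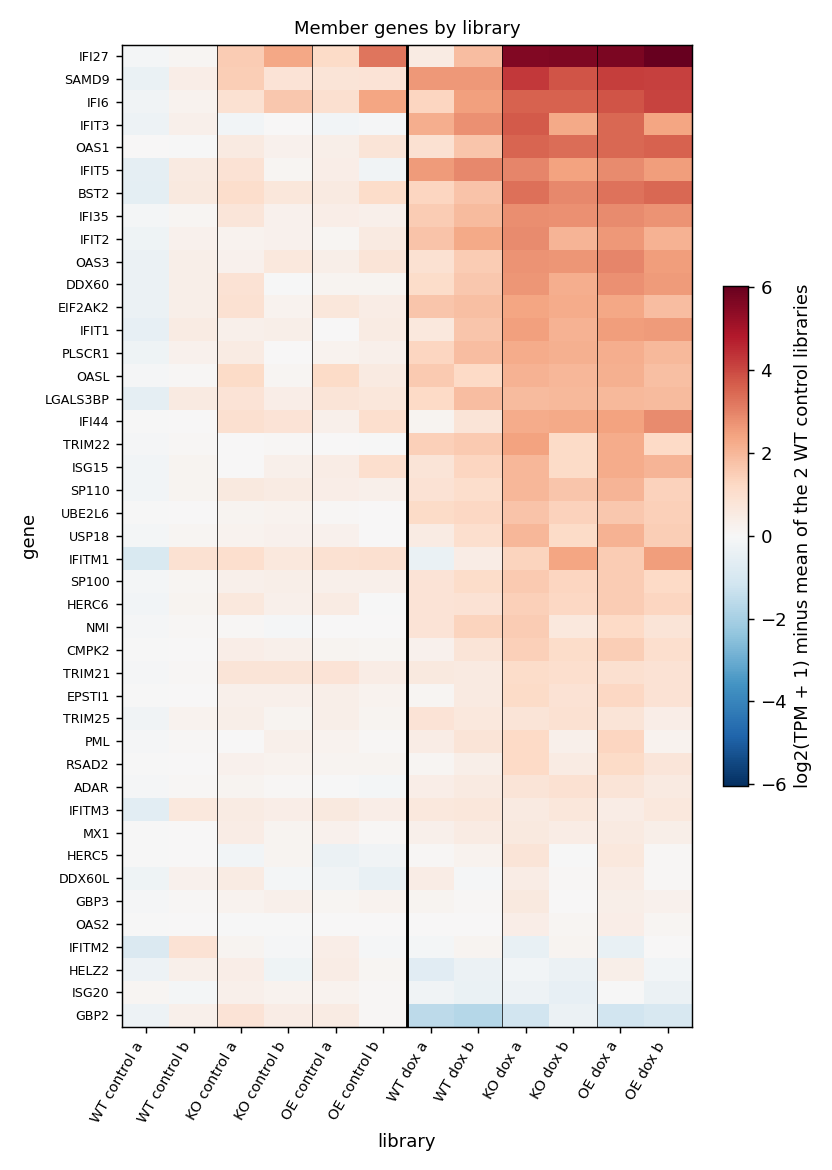
Level of each listed member (43 genes, vertical) in each of the 12 libraries (horizontal) as log2(TPM + 1) minus the mean of the 2 WT control libraries, red for higher and blue for lower. The doxorubicin libraries right of the thick line are red for most members, most deeply in KO and OE cells, and GBP2 is blue in all of them.

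The IFIT proteins bind viral RNA with foreign ends and keep it from being translated. Their genes lie side by side on chromosome 10, from 89283694 to 89421001 (hg38), and all 4 measured members rose in all 3 kinds of cell. IFIT1, which recognises RNA lacking cap methylation, stood at 3.79 and 8.28 TPM in the WT, 7.30 and 7.61 in the KO and 5.74 and 8.31 in the OE control libraries, replicate a before b here and throughout. With doxorubicin it stood at 9.30 and 20.5 TPM in the WT, 36.7 and 28.0 in the KO and 37.2 and 38.6 in the OE cells. The rise was 1.16 in WT, 1.97 in KO and 2.30 in OE cells (SE 0.36), and the doxorubicin libraries lay above the control libraries in each kind of cell. IFIT2, a partner of IFIT1 and IFIT3, stood at 0.344 and 0.906 TPM in the WT, 0.845 and 0.936 in the KO and 0.752 and 1.31 in the OE controls. In doxorubicin it reached 4.23 and 6.78 TPM in the WT, 10.6 and 5.69 in the KO and 8.89 and 5.90 in the OE cells. Its rise of 1.99 in WT, 2.22 in KO and 2.04 in OE cells (SE 0.34) differed between kinds of cell by less than its SE. IFIT3, which stabilises IFIT1 on RNA, was close to absent without the drug, at 0.0936 and 0.619 TPM in the WT, 0.200 and 0.368 in the KO and 0.178 and 0.252 in the OE controls, from 3 to 14 reads a library. With doxorubicin it reached 5.12 and 8.08 TPM in the WT, 16.3 and 5.42 in the KO and 13.5 and 6.04 in the OE cells, a rise of 2.49 in WT, 3.04 in KO and 3.06 in OE cells (SE 0.44). Replicate a of the treated KO and OE cells was well above replicate b. The scale log2(TPM + 1) understates changes from so low a level, and with a pseudocount of 0.1 the IFIT3 rise was 4.13, 4.67 and 4.87 and that of IFIT2 in WT cells 3.03. IFIT5, which binds tRNA and other RNA with a 5′ phosphate, stood at 1.97 and 5.25 TPM in the WT, 6.77 and 3.62 in the KO and 4.65 and 2.78 in the OE controls. Treated libraries held 24.9 and 30.7 TPM in the WT, 32.4 and 22.1 in the KO and 30.7 and 23.6 in the OE cells. The treated groups of IFIT5 overlap among WT, KO and OE cells, and the rise was 2.73 in WT, 2.21 in KO and 2.60 in OE cells (SE 0.38). The limma adjusted p-values of the family lay between 0.000431 (IFIT5 in WT cells) and 0.0283 (IFIT1 in WT cells). IFIT2 and IFIT3 passed the filter for testing only through the doxorubicin libraries, where their levels are high. The IFIT1 call in WT cells was lost without WT control replicate a (limma adjusted p = 0.273), without WT doxorubicin replicate b (0.268), with scaling by the median gene (0.0769) and with voom on recovered reads (0.07), and the difference was 0.68 and 0.63 without those libraries. IFIT1, IFIT2 and IFIT3 overlap LIPA on the opposite strand, at 19.1 to 34.3 TPM, and no source used here states the strand setting of the counting.

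The OAS proteins are sensors of double-stranded RNA that make 2′-5′ oligoadenylate, which activates RNase L. OAS1 and OAS3 (chromosome 12) and OASL, a member without the enzyme activity, rose in all 3 kinds of cell. OAS1 (chromosome 12, 112906777 to 112933222) was near the limit of counting in WT controls and above 10 TPM in treated KO and OE cells. It stood at 0.0970 and 0.0968 TPM in the WT, 0.619 and 0.293 in the KO and 0.394 and 0.909 in the OE controls, from 4 to 62 reads. After doxorubicin the level was 1.04 and 2.49 TPM in the WT, 11.5 and 10.4 in the KO and 11.3 and 11.9 in the OE cells, from 82 and 219 reads in WT and 1040 to 1293 reads in the KO and OE libraries. No library of treated WT cells came near those of treated KO and OE cells, and the rise was 1.28 in WT, 3.04 in KO and 2.95 in OE cells (SE 0.29). OAS3, the longest member of the family, stood at 1.39 and 2.79 TPM in the WT, 2.66 and 3.67 in the KO and 2.83 and 4.11 in the OE controls. Under the drug it measured 4.79 and 7.79 TPM in the WT, 18.5 and 18.3 in the KO and 21.9 and 16.1 in the OE cells, a rise of 1.24 in WT, 2.23 in KO and 2.17 in OE cells (SE 0.31). OASL, which works with the RNA sensor RIG-I, stood at 5.54 and 5.99 TPM in the WT, 14.1 and 6.44 in the KO and 14.2 and 8.96 in the OE controls. With doxorubicin it stood at 19.5 and 14.7 TPM in the WT, 28.4 and 26.5 in the KO and 28.6 and 22.7 in the OE cells. Its rise of 1.41 in WT, 1.42 in KO and 1.11 in OE cells (SE 0.32) differed between kinds of cell by less than its SE. With a pseudocount of 0.1 the OAS1 rise was 3.13 in WT and 4.37 in KO cells, so its size in WT cells depends on that choice. The limma adjusted p-values lay between 7.24e-05 (OAS1 in KO cells) and 0.0284 (OASL in OE cells). OAS1 passed the filter for testing only through the doxorubicin libraries, where its level is high. The calls in WT cells were lost for OAS1 without WT doxorubicin replicate b (limma adjusted p = 0.0723), for OAS3 without WT control replicate a (0.122) or WT doxorubicin replicate b (0.103), and for OASL without WT control replicate a (0.051) or WT doxorubicin replicate a (0.0646). The OASL call was also lost without KO control replicate b (0.103, with a difference of 0.91), OE control replicate b (0.226) and OE doxorubicin replicate a (0.136).

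ISG15 is conjugated to proteins by the E2 enzyme UBE2L6 and the ligase HERC5, and removed by USP18, which also restrains the receptor IFNAR2. ISG15 was the most abundant member, with a mean of 445 TPM over the 12 libraries. It stood at 179 and 219 TPM in the WT, 201 and 243 in the KO and 269.6 and 406 in the OE controls. In doxorubicin it reached 340.4 and 494 TPM in the WT, 795 and 440.3 in the KO and 925 and 833 in the OE cells. The rise was 1.05 in WT, 1.41 in KO and 1.40 in OE cells (SE 0.30), and the highest library was OE doxorubicin replicate a. UBE2L6 stood at 10.4 and 11.1 TPM in the WT, 12.2 and 12.4 in the KO and 11.5 and 11.1 in the OE controls. Treated libraries held 25.2 and 26.8 TPM in the WT, 37.4 and 30.0 in the KO and 35.0 and 30.8 in the OE cells, a rise of 1.20 in WT, 1.38 in KO and 1.46 in OE cells (SE 0.21). HERC6, a relative of HERC5, rose in all 3 kinds of cell by 0.86, 0.87 and 1.16, and USP18 rose by 1.34 in KO and 1.63 in OE cells (limma adjusted p = 0.0123 and 0.00498). In WT cells the USP18 difference was 0.74 and was not called (limma adjusted p = 0.0979), but it was called with TPM rescaled without small RNA (0.0339). HERC5 was not called, with differences of 0.14, 0.40 and 0.65, but in OE cells it was called with TPM rescaled without small RNA (limma adjusted p = 0.0224). The ISG15 call in WT cells was lost without WT control replicate a (limma adjusted p = 0.126), without WT doxorubicin replicate b (0.149) and with scaling by the median gene (0.0799), and that in OE cells without OE control replicate a (0.0589). USP18 lost its KO call without KO control replicate b (0.0664) or KO doxorubicin replicate a (0.13, with a difference of 0.89) and its OE call without OE control replicate b (0.0518). HERC6 lost its WT call without any 1 of the 4 WT libraries (0.0504 to 0.197), its KO call without KO control replicate b or either treated KO library (0.0685 to 0.212) and with only the groups compared in the fit (0.0956), and its OE call without OE control replicate b (0.136) or OE doxorubicin replicate a (0.0606).

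SAMD9, a cytoplasmic inhibitor of poxvirus growth that cleaves a tRNA, showed 1 of the largest rises of the list. It stood at 1.30 and 3.07 TPM in the WT, 7.58 and 4.50 in the KO and 4.18 and 4.42 in the OE controls. After doxorubicin the level was 17.7 and 17.8 TPM in the WT, 58.2 and 42.2 in the KO and 54.4 and 53.3 in the OE cells, where the WT libraries lay under those of KO and OE cells. The rise was 2.61 in WT, 2.88 in KO and 3.37 in OE cells (SE 0.30), with limma adjusted p-values of 0.000171, 0.000154 and 4.76e-05. DDX60, a helicase-like protein linked to RIG-I signalling, stood at 1.51 and 3.12 TPM in the WT, 4.81 and 2.13 in the KO and 2.65 and 2.56 in the OE controls. Under the drug it measured 6.02 and 8.90 TPM in the WT, 19.3 and 13.9 in the KO and 20.5 and 18.3 in the OE cells, a rise of 1.37 in WT, 2.03 in KO and 2.50 in OE cells (SE 0.34). Its WT call was lost without WT control replicate a (limma adjusted p = 0.116) or WT doxorubicin replicate b (0.0896). Its close relative DDX60L ranged from 13.6 to 27.2 TPM and was not called in any kind of cell (0.20, 0.06 and 0.57). In OE cells DDX60L was called with TPM rescaled without small RNA (limma adjusted p = 0.0451). HELZ2, a nuclear helicase, ranged from 5.32 to 12.9 TPM and was not called (-0.53, -0.31 and -0.17), although with scaling by the median gene it was called lower in WT cells (-0.71).

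EIF2AK2 encodes PKR, the kinase that stops translation when it binds double-stranded RNA. It stood at 3.62 and 6.36 TPM in the WT, 10.0 and 5.82 in the KO and 8.28 and 6.91 in the OE controls. With doxorubicin it stood at 17.5 and 19.7 TPM in the WT, 29.4 and 26.4 in the KO and 28.6 and 20.1 in the OE cells. The rise of 1.75 in WT, 1.74 in KO and 1.55 in OE cells (SE 0.30) differed between them by less than its SE, with limma adjusted p-values of 0.00142 to 0.00427. GPATCH11, at 2.06 to 20.9 TPM, overlaps EIF2AK2 on the opposite strand. ADAR, which edits double-stranded RNA and so hides it from PKR and MDA5, had a high basal level (42.8 to 88 TPM) and rose by 0.71 in KO and 0.75 in OE cells (limma adjusted p = 0.0156 and 0.0134). In WT cells its difference of 0.48 was not called (limma adjusted p = 0.0634), but with TPM rescaled without small RNA it was called (0.0351). The KO call was lost without KO control replicate b or either treated KO library. The OE call was lost without either OE control or OE doxorubicin replicate a. Both were lost with only the groups compared in the fit (limma adjusted p = 0.0589 and 0.0522).

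**Figure D3:**
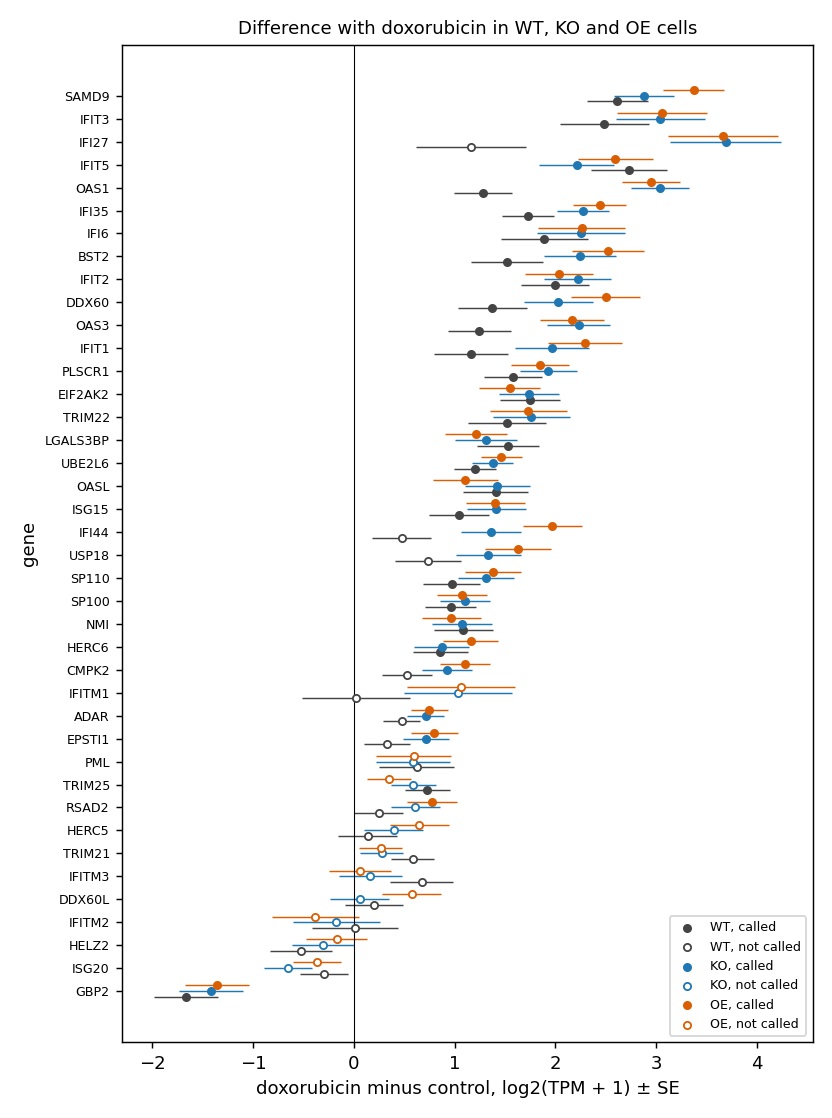
Difference with doxorubicin for the 40 tested members in WT (grey), KO (blue) and OE (orange) cells, in log2(TPM + 1) units with the SE of the fit as bars; filled points were called. SAMD9, IFIT3, IFIT5 and OAS1 stand near the top, IFI27 spreads from 1.16 in WT to 3.69 in KO cells, and GBP2 lies below 0 in all 3.

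Among the TRIM and nuclear body proteins, TRIM22, a ubiquitin ligase that limits several viruses, was almost silent in every control group. It stood at 0.0926 and 0.214 TPM in the WT, 0.172 and 0.193 in the KO and 0.173 and 0.134 in the OE controls, from 7 to 12 reads. In doxorubicin it reached 2.13 and 2.49 TPM in the WT, 5.30 and 1.56 in the KO and 4.47 and 1.68 in the OE cells, a rise of 1.52 in WT, 1.76 in KO and 1.73 in OE cells (SE 0.38). Replicate a of the treated KO and OE cells was again above replicate b. With a pseudocount of 0.1 the rise was 3.29, 3.40 and 3.50, and the gene passed the filter only through the doxorubicin libraries. TRIM22 overlaps TRIM5 on the opposite strand, at 10.2 to 18.9 TPM. Its WT call was lost without WT control replicate a (limma adjusted p = 0.0735), WT doxorubicin replicate a (0.0505) or b (0.068), its KO call without KO doxorubicin replicate a (0.0571, with a difference of 1.11), and its OE call without OE control replicate b (0.0575) or OE doxorubicin replicate a (0.0737). The nuclear body proteins SP100 and SP110 rose in all 3 kinds of cell, by 0.96 to 1.10 and by 0.97 to 1.38 respectively. SP100 lost its call without WT control replicate a (0.111), WT doxorubicin replicate b (0.0896), KO control replicate b (0.0503), KO doxorubicin replicate a (0.0855), either OE control (0.0621 and 0.0803) or OE doxorubicin replicate a (0.0611), each in its own kind of cell and by limma adjusted p. SP110 lost its call in the same way without WT control replicate a (0.148), either treated WT library (0.061 and 0.113), KO doxorubicin replicate a (0.0553) or OE control replicate b (0.0515). TRIM25, the ligase that activates RIG-I, was called in WT cells (0.73, limma adjusted p = 0.0233) and lost that call without WT control replicate a (0.203) or either treated WT library (0.127 and 0.0723). Its differences in KO and OE cells were 0.59 and 0.35, the former called with scaling by the median gene (limma adjusted p = 0.0276), and the difference between kinds of cell was not called. PML (0.62, 0.58 and 0.59) and the antibody receptor TRIM21 (0.59, 0.28 and 0.27) were not called. In WT cells TRIM21 was called with TPM rescaled without small RNA (limma adjusted p = 0.0129).

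IFI6 and IFI27 are small membrane proteins of 1 family. IFI6, which protects against flaviviruses at the endoplasmic reticulum, stood at 22.1 and 30.4 TPM in the WT, 50.7 and 83.3 in the KO and 50.9 and 139 in the OE controls. Treated libraries held 65.6 and 148 TPM in the WT, 312 and 316 in the KO and 369.6 and 448 in the OE cells, a rise of 1.89 in WT, 2.26 in KO and 2.26 in OE cells (SE 0.43). The KO and OE controls of IFI6 lay above both WT controls, and replicate a of WT cells had the lowest level in each medium. IFI35, which forms a complex with NMI, stood at 1.30 and 1.77 TPM in the WT, 3.20 and 1.99 in the KO and 2.31 and 2.13 in the OE controls. After doxorubicin the level was 6.34 and 8.53 TPM in the WT, 16.5 and 15.8 in the KO and 17.1 and 15.8 in the OE cells, a rise of 1.73 in WT, 2.28 in KO and 2.44 in OE cells (SE 0.26). NMI itself lay between 0.294 and 0.443 TPM in the controls and between 1.13 and 2.92 TPM with doxorubicin, and rose by 1.09, 1.07 and 0.97. BST2 (tetherin), which holds budding virus at the cell surface, stood at 0.914 and 3.22 TPM in the WT, 4.91 and 3.60 in the KO and 3.16 and 5.12 in the OE controls. Under the drug it measured 6.08 and 8.41 TPM in the WT, 27.2 and 20.6 in the KO and 26.2 and 30.0 in the OE cells, a rise of 1.52 in WT, 2.24 in KO and 2.53 in OE cells (SE 0.36). PLSCR1, a phospholipid scramblase that blocks virus entry, stood at 2.09 and 3.55 TPM in the WT, 4.21 and 2.84 in the KO and 3.30 and 3.58 in the OE controls. With doxorubicin it stood at 8.34 and 12.4 TPM in the WT, 16.7 and 15.5 in the KO and 16.4 and 13.6 in the OE cells, a rise of 1.58 in WT, 1.93 in KO and 1.85 in OE cells (SE 0.29). The secreted glycoprotein LGALS3BP was abundant, with 49.3 and 105 TPM in the WT, 126 and 96.5 in the KO and 125 and 114 in the OE controls. In doxorubicin it reached 166 and 263 TPM in the WT, 272 and 279 in the KO and 278 and 277 in the OE cells, a rise of 1.53 in WT, 1.31 in KO and 1.21 in OE cells (SE 0.31), and the treated KO and OE libraries all lay between 272 and 279 TPM. The limma adjusted p-values of these members lay between 0.000156 (IFI35 in OE cells) and 0.0329 (NMI in OE cells).

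The WT calls of IFI6 (limma adjusted p = 0.0639 and 0.083), NMI (0.0966 and 0.123) and BST2 (0.1 and 0.0674) were lost when WT control replicate a, or WT doxorubicin replicate b, was left out. Without WT control replicate a the differences of BST2 and LGALS3BP in WT cells were 0.95 and 0.99. LGALS3BP lost its KO call without KO control replicate b (0.0893) and its OE call without either OE control (0.0551 and 0.0985) or OE doxorubicin replicate a (0.0629). NMI lost its KO call without KO control replicate b (0.113) or KO doxorubicin replicate a (0.206, with a difference of 0.63) and its OE call without either OE control (0.121 and 0.139) or OE doxorubicin replicate a (0.181). Scarcer members were called in KO or OE cells. Like NMI, the 3 named next passed the filter only through the doxorubicin libraries. CMPK2 rose by 0.93 and 1.11 in KO and OE cells, EPSTI1 by 0.72 and 0.80, and RSAD2, whose product viperin stops viral polymerases, by 0.78 in OE cells. None of the 3 went above 2.37 TPM in any library, and each of their 5 calls was lost without control replicate b or doxorubicin replicate a of its own kind of cell (limma adjusted p = 0.066 to 0.239). The EPSTI1 calls and that of RSAD2 were lost without control replicate a too (0.0906 to 0.126), and in KO cells those of CMPK2 and EPSTI1 with only the groups compared in the fit (0.0532 and 0.11) and that of EPSTI1 with a pseudocount of 0.1 (0.0566). With a pseudocount of 0.1 the 5 rises were 1.34 to 2.20, and those of NMI 2.10, 2.04 and 1.89. CMPK2 and RSAD2 overlap each other on opposite strands. ISG20, an exonuclease, was not called (-0.30, -0.65 and -0.37), but with scaling by the median gene it was called lower in all 3 kinds of cell (-0.44, -0.62 and -0.46).

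Across those families 8 members kept their call in all 3 kinds of cell under every alternative in which they were tested. These were EIF2AK2, IFI35, IFIT2, IFIT3, IFIT5, PLSCR1, SAMD9 and UBE2L6. Of these, IFIT2 and IFIT3 passed the filter only through the doxorubicin libraries and were not tested at a mean of at least 5 TPM. The opposite direction was shown by GBP2, a guanylate-binding protein that attacks the membranes around intracellular bacteria and parasites. It stood at 2.70 and 4.65 TPM in the WT, 7.18 and 5.26 in the KO and 5.54 and 3.85 in the OE controls. Treated libraries held 0.503 and 0.379 TPM in the WT, 1.04 and 2.53 in the KO and 1.07 and 1.33 in the OE cells. GBP2 fell by 1.67 in WT, 1.42 in KO and 1.36 in OE cells (SE 0.32), with limma adjusted p-values of 0.0026, 0.00833 and 0.011. Treated libraries lay under the controls in each kind of cell. With a pseudocount of 0.1 the difference in WT cells was -2.76. The KO call was lost without KO doxorubicin replicate a (0.0908) and the OE call without OE control replicate a (0.0833) or OE doxorubicin replicate a (0.0575).

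The IFITM proteins block fusion of viruses with the cell membrane, and no member of the family was called with doxorubicin. IFITM3 was the second most abundant member of the list. It stood at 106 and 262 TPM in the WT, 237 and 217 in the KO and 249.8 and 217 in the OE controls. After doxorubicin the level was 259.6 and 272 TPM in the WT, 242 and 266 in the KO and 228 and 259 in the OE cells. WT control replicate a was the single low library, and the differences were 0.67, 0.16 and 0.06 (SE 0.31). IFITM1 ranged from 2.1 to 32.4 TPM and differed by 0.02, 1.03 and 1.06 (SE 0.54), and IFITM2 ranged from 18.3 to 63 TPM and differed by 0.01, -0.17 and -0.38 (SE 0.43). With scaling by the median gene and with voom, the sign of the IFITM1 and IFITM2 differences in WT cells and of the IFITM3 difference in OE cells was the opposite one. The 3 genes are of 1 family and IFITM1 lies within IFITM2 on chromosome 11, so reads may be split between them and these values are uncertain.

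**Figure D4:**
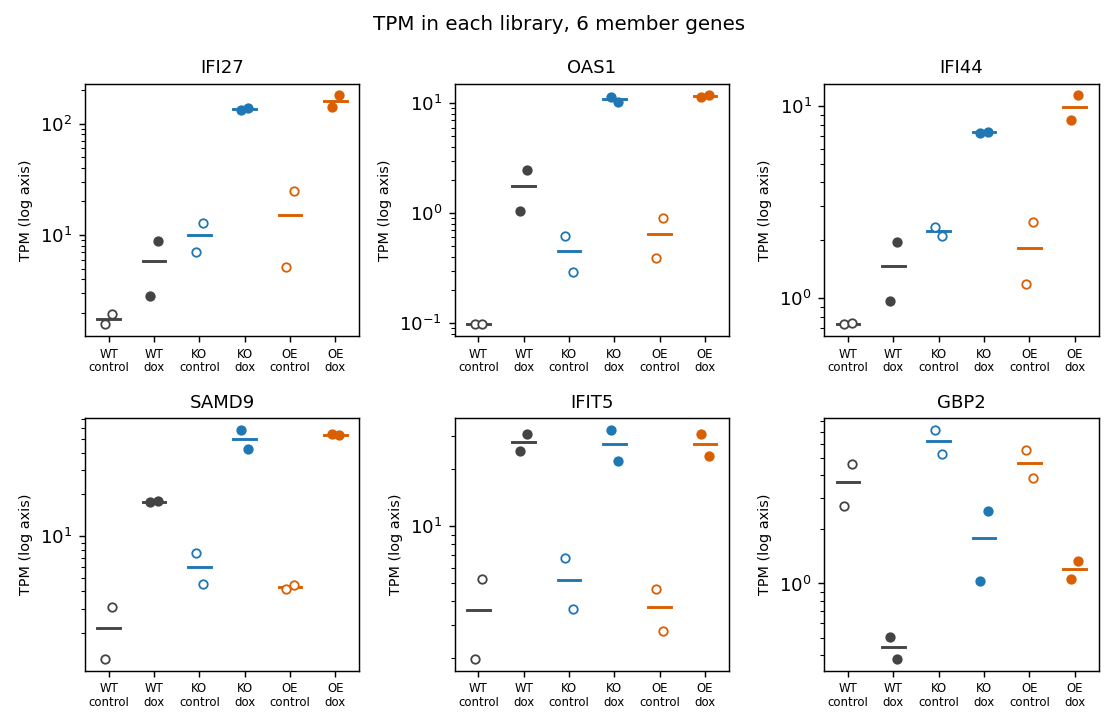
TPM on a log axis of 6 members in each library, open points for control and filled points for doxorubicin, with the group mean as a line. IFI27, OAS1, IFI44 and SAMD9 stand higher in treated KO and OE cells than in treated WT cells, IFIT5 overlaps across the 3, and GBP2 falls in each.

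The second question was whether cells without SPARCLE, or with more of it, differed from WT cells in these genes. In control medium no member was called in either comparison, where 0.0918% and 0.118% of all genes were called in limma. At an unadjusted limma p under 0.05, 6 of 40 members differed between KO and WT cells and 9 between OE and WT cells. Of all 15256 genes, 1090 and 767 differed at that level. Voom on recovered reads called 0 members as well, where it called 0.0328% and 0.0524% of all genes higher and 0.111% and 0.131% lower. The median member difference was 0.35 in KO (0.21 with scaling by the median gene) and 0.28 in OE cells, where that of all genes was 0.20 and -0.04. KO controls lay above both WT controls with no overlap for 20 of the 40 members (33.6% of all genes) and OE controls for 20 (12.9% of all genes). The largest differences were those of IFI27 (1.94 in KO and 2.20 in OE, SE 0.55, limma adjusted p = 0.427 and 0.303) and IFI6 (1.29 and 1.66, SE 0.43, limma adjusted p = 0.607 and 0.337). Without OE control replicate a, 1 member, IFI27, was called in OE cells (3.22, limma adjusted p = 0.0316). Both comparisons share the WT control libraries, of which replicate a was the lowest of all for these genes. The summed epithelial markers were 929 to 1350 TPM in WT, 1530 to 1880 TPM in KO and 1540 to 2040 TPM in OE controls, and their part in these differences was not tested.

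With doxorubicin 3 members were called higher in KO than in WT cells, and 3 in OE than in WT cells, where 0.111% and 0.0852% of all genes were called higher. They were IFI27, OAS1 and IFI44 each time, and no member was called lower. Both comparisons share the 2 treated WT libraries. At an unadjusted limma p under 0.05, 18 of 40 members differed in KO and 17 in OE cells. Of all 15256 genes, 523 and 737 differed at that level. The median member difference was 0.55 in both, where that of all genes was 0.01 and -0.12. Treated KO libraries lay above both treated WT libraries with no overlap for 27 members (12.1% of all genes), and treated OE libraries for 28 (5.78% of all genes). SAMD9 and BST2 came next in OE cells, at 1.55 and 1.83 (limma adjusted p = 0.053 each), followed by OAS3 at 1.48 and IFI6 at 2.03 (0.0874 and 0.0886). SAMD9 was called in OE cells with scaling by the median gene (limma adjusted p = 0.0216), with TPM rescaled without small RNA (0.0434) and with voom (0.0108). In KO cells it was called with voom (limma adjusted p = 0.0318) and with only the groups compared in the fit (0.0161). Without WT doxorubicin replicate a, 0 members were called in KO and 1 in OE cells, and without OE doxorubicin replicate b, 1 in OE cells.

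IFI27 (chromosome 14, 94104836 to 94116698) had the largest difference of the list. In control medium it stood at 1.57 and 1.96 TPM in the WT, 7.02 and 12.9 in the KO and 5.21 and 24.7 in the OE cells. Under the drug it measured 2.85 and 8.91 TPM in the WT, 133 and 138 in the KO and 140.4 and 180.4 in the OE cells. The treated KO libraries held 10166 and 12808 reads of IFI27 and the treated OE libraries 11094 and 16444, against 188 and 657 in treated WT cells. IFI27 was higher than in treated WT cells by 4.47 (SE 0.55, limma adjusted p = 0.00332) in KO cells and by 4.70 (SE 0.55, limma adjusted p = 0.00152) in OE cells. On the scale of TPM + 1 that is 22.1-fold and 25.9-fold. With doxorubicin it rose by 3.69 in KO and 3.66 in OE cells (limma adjusted p = 0.000932 and 0.00106). The difference in WT cells was 1.16 (SE 0.55) and was not called (limma adjusted p = 0.119), with both treated libraries above both controls. The KO against WT call was lost without WT doxorubicin replicate a (limma adjusted p = 0.0662).

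OAS1, whose values are given above, was higher than in treated WT cells by 2.16 (SE 0.29, limma adjusted p = 0.00604) in KO cells and by 2.24 (SE 0.29, limma adjusted p = 0.00373) in OE cells. The KO call was lost without WT doxorubicin replicate a (limma adjusted p = 0.106), and the OE call without that library (0.0716) or OE doxorubicin replicate b (0.0509). IFI44, a microtubule-associated antiviral protein (chromosome 1, 78649796 to 78664078), stood at 0.730 and 0.746 TPM in the WT, 2.35 and 2.12 in the KO and 1.18 and 2.49 in the OE controls. With doxorubicin it stood at 0.965 and 1.97 TPM in the WT, 7.25 and 7.35 in the KO and 8.43 and 11.4 in the OE cells, from 31 and 71 reads in WT and 271 to 510 reads in the KO and OE libraries. IFI44 was higher than in treated WT cells by 1.78 (SE 0.30, limma adjusted p = 0.0234) in KO cells and by 2.16 (SE 0.30, limma adjusted p = 0.00622) in OE cells. It rose with doxorubicin by 1.36 in KO and 1.97 in OE cells (limma adjusted p = 0.00693 and 0.00109), and its difference in WT cells was 0.47 (limma adjusted p = 0.232). The KO against WT call was lost without any 1 of the 4 libraries (limma adjusted p = 0.07 to 0.303), with scaling by the median gene (0.0785), with TPM rescaled without small RNA (0.0503) and with voom (0.0634). The OE call was lost without WT doxorubicin replicate a (0.124) or OE doxorubicin replicate b (0.088), and the rise in KO cells without KO control replicate b (0.0528).

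**Figure D5:**
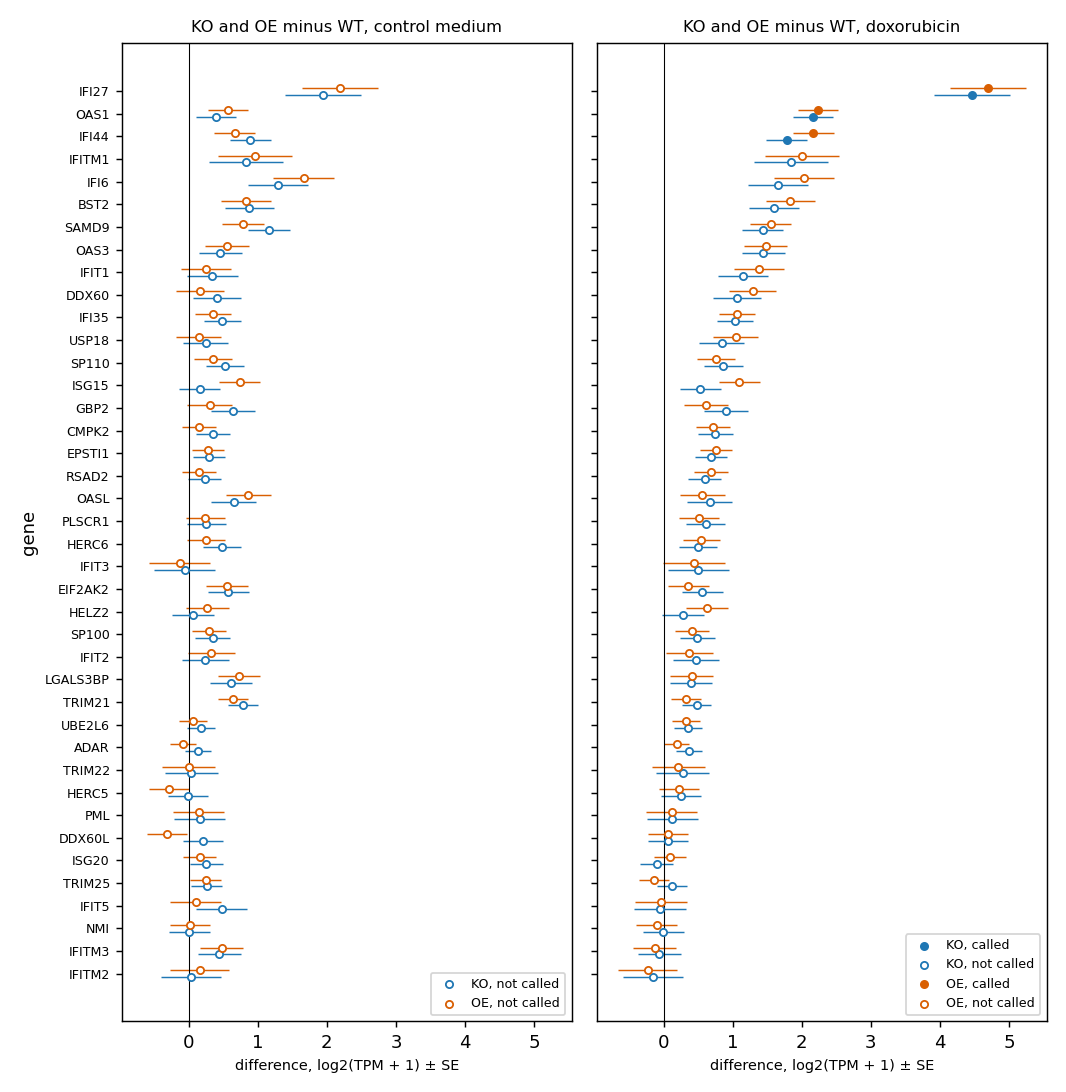
Difference of KO (blue) and OE (orange) cells from WT cells for the 40 tested members, in control medium (left) and with doxorubicin (right), in log2(TPM + 1) units with the SE of the fit as bars; filled points were called. All points at left are open, and at right IFI27, OAS1 and IFI44 are filled at 1.78 to 4.70.

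Whether the response to doxorubicin itself differed between kinds of cell was tested as an interaction. No member was called in KO or OE cells, where 0.00655% of all genes were called in each. At an unadjusted limma p under 0.05, 3 of 40 members differed in KO and 5 in OE cells. Of all 15256 genes, 194 and 150 differed at that level. Voom called 0 members too, but it called 0 of all 15256 genes in either interaction, so that count says nothing about the members. Both interactions subtract the same WT libraries, so they are not independent of each other. The interaction was above 0 for 29 of 40 members in KO, 29 in OE and 28 in both. These counts include GBP2, whose difference was negative in each kind of cell, and HELZ2, which stood at -0.53, -0.31 and -0.17 in WT, KO and OE cells. The median interaction was 0.26 in KO and 0.36 in OE cells against -0.18 and -0.07 for all genes. For IFI27 the interaction was 2.53 (95% interval 0.85 to 4.21) in KO and 2.50 (0.82 to 4.18) in OE cells. For OAS1 it was 1.76 (0.88 to 2.64) and 1.67 (0.78 to 2.55), and for IFI44 0.89 (-0.02 to 1.79) and 1.50 (0.59 to 2.40). The OAS1 values depended on the pseudocount, and at 0.1 they were 1.24 and 0.92 and with voom 0.94 and 0.35. All 6 had a limma adjusted p of 1.00 over 15256 genes. The members called with doxorubicin in KO or OE cells and not in WT cells are therefore not shown to respond differently.

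The upstream steps of the pathway were followed in 42 further genes, of which 31 have a row and were tested. The 9 interferon genes of that list and the sensors CGAS and ZBP1 have no row in the table used here. With doxorubicin 13 of the 31 were called higher and 5 lower in WT cells, 8 and 2 in KO cells, and 10 and 3 in OE cells. Of all genes tested, the higher calls were 19.6%, 9.9% and 12.4% and the lower calls 12.6%, 14.3% and 10.6% in the same order, so that the counts of lower calls are near or under the share over all genes. Among the 6 receptor genes 2 were called higher and 1 lower in WT cells, a count near those shares. IFNAR1, a chain of the type I receptor, rose by 1.32, 0.92 and 0.92 in WT, KO and OE cells. The lambda receptor gene IFNLR1 fell by 1.18 in WT and 0.93 in OE cells and stood at -0.85 in KO cells (limma adjusted p = 0.0616). Among the 11 kinases and transcription factors, IRF9 rose by 1.33, 1.50 and 1.78 in WT, KO and OE cells, whereas STAT2, also a part of ISGF3, was not called (-0.02, 0.18 and 0.53). JAK1 fell by 0.60, 0.84 and 0.89. By limma adjusted p, the WT calls of IFNAR1 (0.0671), IFNLR1 (0.149), JAK1 (0.101) and IRF9 (0.0788) were lost without WT control replicate a. IFNAR1 lost its KO call without KO control replicate b (0.264), KO doxorubicin replicate a (0.232) or b (0.0517) and its OE call without either OE control (0.0897 and 0.249) or OE doxorubicin replicate a (0.232). With only the groups compared in the fit it lost both (0.0804 and 0.0783), and with no filter on low values the OE call (0.051). In WT cells IFNAR1 also lost its call without WT doxorubicin replicate a (0.0602), IFNLR1 and IRF9 without WT doxorubicin replicate b (0.113 and 0.0684), and JAK1 without any other WT library (0.0696 to 0.177). IFNLR1 lost its OE call without any 1 OE library (0.0582 to 0.229), with only the groups compared (0.0679) and with no filter (0.0523), JAK1 its KO call without KO doxorubicin replicate a (0.0619) and its OE call without OE control replicate a (0.0711), and IRF9 its KO call without KO control replicate b or KO doxorubicin replicate a (0.0611 and 0.0533).

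The largest rises of that list were those of sensors and their adaptors. Of the 10 measured, 8 were called higher in WT, 5 in KO and 7 in OE cells (19.6%, 9.9% and 12.4% of all genes). STING1, the adaptor of the DNA sensor cGAS, rose by 2.16, 2.27 and 2.17 in WT, KO and OE cells. The RNA sensors RIGI (1.93, 2.17 and 2.26) and IFIH1 (1.97, 2.37 and 2.45), the endosomal receptor TLR3 (2.29, 2.19 and 2.29) and the kinase IKBKE (2.04, 2.01 and 2.09) rose as well. These genes kept their calls under every alternative run, except that of TLR3 in OE cells without OE doxorubicin replicate a (limma adjusted p = 0.0526). The rise of TLR3 in KO cells was 1.36 without KO doxorubicin replicate a, and with a pseudocount of 0.1 TLR3 rose by 4.28, 4.10 and 4.30 and IKBKE by 3.49, 3.11 and 3.33. The other higher calls were those of MAVS (1.10 in WT and 0.98 in OE cells), TBK1 (0.96 and 0.89) and SAMHD1 (0.99 in WT cells). Each was lost in at least 3 of the fits that left out a library of its own kind of cell. The third RIG-I-like gene, DHX58, fell by 0.93 in WT cells and was not called in KO or OE cells (-0.17 and -0.27), with -1.60 in WT cells at a pseudocount of 0.1. Of the 4 brakes, PIAS1, an inhibitor of STAT signalling, fell by 0.69, 0.99 and 0.78 in WT, KO and OE cells, and SOCS1, SOCS3 and PTPN2 were not called. With only the groups compared in the fit the PIAS1 call was lost in all 3 (limma adjusted p = 0.0541, 0.0598 and 0.144), and with no filter that in WT cells (0.0544). By limma adjusted p, the DHX58 call was lost without WT control replicate a (0.125) or either treated WT library (0.0646 and 0.0868). The PIAS1 call was lost without any 1 WT library (0.142 to 0.161), any 1 OE library (0.0601 to 0.209), KO control replicate b or either treated KO library (0.0589 to 0.126).

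IRF7, the factor that amplifies type I interferon production, was the sole gene of these 31 called between kinds of cell. The call was in OE against WT cells with doxorubicin, where 0.0852% of all genes were called higher. It stood at 9.30 and 13.7 TPM in the WT, 20.8 and 18.4 in the KO and 23.8 and 24.3 in the OE controls. Treated libraries held 3.85 and 7.47 TPM in the WT, 17.3 and 12.7 in the KO and 22.5 and 15.8 in the OE cells. IRF7 fell by 0.94 in WT cells (limma adjusted p = 0.031) with differences of -0.38 in KO and -0.33 in OE cells. Treated OE cells lay above treated WT cells by 1.63 (SE 0.30, limma adjusted p = 0.0427). For KO cells the difference was 1.31 (SE 0.30, limma adjusted p = 0.137). The OE call was lost without WT doxorubicin replicate a (limma adjusted p = 0.524), OE doxorubicin replicate a (0.268) or b (0.129) and at a mean level of at least 5 TPM (0.0611). The fall in WT cells was lost without either WT control (0.0529 and 0.186) or WT doxorubicin replicate a (0.273, with a difference of -0.54).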

How the data were processed

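Strand-specific total RNA libraries (TruSeq Stranded Total RNA, per the labels' protocols) were aligned with HISAT2 2.0.4 to hg38 and counted with featureCounts, and edgeR 3.12.1 was used, per the submitters' processing notes. The deposited values are log2 TPM per gene and library as the authors gave them, with no statement of the counting's strand setting. Values were returned to TPM, and whole reads were recovered from the TPM steps with GENCODE v29 gene lengths (15182 genes, 91.7%, whole within 0.05 reads). Members were matched by Ensembl identifier through GENCODE v29. Genes of at least 1 TPM in at least 2 of 12 libraries were fitted as log2(TPM + 1) by limma 3.58.1 (R 4.3.3), as 1 model of 6 groups of 2 with an intensity trend and 9 comparisons. P-values were adjusted over all genes tested in each comparison. Procedures were tested on simulated data. Members given with every library were those called in all 3 kinds of cell by at least 1 log2 unit, called between kinds of cell, called lower, or of the highest mean level. The counts of the pathway and marker lists include genes whose values are not reported here. The members, the lists and these rules were chosen with earlier results of these data known. Alternatives were the pseudocount, filters, scalings, voom on recovered reads, the groups in the fit, a replicate block and leaving out each library.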

Additional observations from a re-analysis of the deposited data

How the results depend on the processing

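The 89 calls of members were refitted 1033 times under the alternatives, with 925 calls kept, 108 lost and 0 reversed in direction. Of the 108, most came from leaving out a library, which leaves 1 library in a group, and the counts over all genes in those fits are not given here. Of the 24 members called with doxorubicin in WT cells, 11 to 24 were called when a library was left out, with 11 without WT control replicate a or WT doxorubicin replicate b. In KO cells the 29 became 19 to 28, with 19 without KO control replicate b or KO doxorubicin replicate a, and in OE cells the 30 became 18 to 31, with 18 without OE control replicate b. At a mean of at least 5 TPM, which leaves 26 members to test, 18 were called higher with doxorubicin in KO and 18 in OE cells (10.5% and 13.1% of all genes). At that level 1 member was called higher in each comparison with WT cells under doxorubicin (0.0434% of all genes in both). Those comparisons, with 3 calls each, gave 8 and 10 with only the groups compared in the fit (0.21% and 0.4% of all genes called higher). Voom gave 4 for KO and 9 for OE cells (0.275% and 0.354% of all genes called higher). Leaving out a library gave 0 to 2 for KO and 1 to 3 for OE cells. In control medium OE against WT gave 0 to 1 calls. A fit with the replicate block gave 27, 30 and 30 calls with doxorubicin in WT, KO and OE cells and 5 and 6 against WT cells under doxorubicin. Of all genes, that fit called 24.8%, 13.9% and 17.4% higher and 14.9%, 17.4% and 13.3% lower with doxorubicin. Against WT cells under doxorubicin it called 0.223% and 0.17% higher. Over 15 pairs of groups the correlation of same-letter deviations ran from -0.39 to 0.81 and exceeded 0.1 in 7. It was highest between treated KO and treated OE cells (0.81) and between KO and OE controls (0.50). The letters therefore do not pair all groups alike, and whether some groups share a pairing was not tested. Pathway genes were refitted under the same alternatives, a choice made after seeing the data, and of 496 refits of 42 calls 419 were kept, 77 lost and 0 reversed. For the remaining changes the cause was not tested. Low levels limit the size of a difference: with a pseudocount of 0.1 that of OAS1 in WT cells went from 1.28 to 3.13, and 3 of the 50 members were too low to test.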

Other observations

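The 2 replicates of a group differed over the members, beside a shift over all genes. Replicate a lay above replicate b for 30 of 40 tested members in treated KO and in treated OE cells, with a median ratio of a to b of 1.25 in both. Over all 15256 genes tested it lay above for 78.5% in treated KO and 91.9% in treated OE cells, with median ratios of 1.25 and 1.48, so the order of the members there is that of most genes. In treated WT cells replicate a lay above for 6 of 40 members (median ratio 0.749), opposite to all genes (83%, median ratio 1.21). In WT controls it lay above for 2 members and 33.3% of all genes (median ratios 0.704 and 0.872). The KO and OE controls stood at 26 and 24 members (ratios 1.11 and 1.05), against 68.5% and 71.3% of all genes (ratios 1.19 and 1.15). The 3 members under the filter for testing held few reads. OAS2 had 1 to 7 reads in every library apart from the treated KO and OE libraries, which held 43 and 18 reads and 43 and 16 reads. MX1 ranged from 12 to 112 reads and GBP3 from 21 to 95 reads.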
